A study of Mus musculus with 18 samples.

Results

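The 8 genes described here, Hsd3b5, Selenbp2, Elovl3, Serpina12, Cyp4a12a, Cyp2d9, Slco1a1 and Nat8, are liver genes known to need pulsatile growth hormone and the transcription factor STAT5b, and were taken by name from the 54532 genes of each deposited table. They were chosen by name but with measured values in view, the log2 fold changes of both diet comparisons, so their differences between the diets are a description and carry no test. Livers came from wild-type male C57BL/6J mice fasted overnight and fed from 4 weeks of age a diet lacking 99% of its riboflavin (vitamin B2; the deficient group is called B2D) or an isocaloric control diet (Ctrl). Without fenofibrate, 5 Ctrl and 5 B2D mice were fed for 1 month. With fenofibrate (FF), an agonist of the lipid-sensing receptor PPARα, 4 Ctrl+FF and 4 B2D+FF mice were fed for 9 weeks. These mice received the drug by gavage in weeks 7 to 9, with a dose 2 hr before the measurements at the end. Riboflavin is the precursor of the cofactors FAD and FMN, and the comparisons asked how its shortage alters liver transcripts in the fasted state and under PPARα activation.

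Growth hormone is released from the pituitary in pulses in male rodents and more evenly in females. Each pulse reaches the growth hormone receptor (Ghr) on hepatocytes, activates the kinase JAK2 and sends phosphorylated STAT5b to the nucleus, where it raises genes that are high in male liver. BCL6, a repressor that is high in male liver, holds down many genes of the female pattern, and CUX2, which is high in female liver, holds down many of the male one. The 8 genes are among the male-predominant outputs of this axis in mice, and several handle steroids, fatty acids or conjugates of drugs.

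The letters to which STAT5 dimers bind, TTCNNNGAA (any bases at N, the same on both strands), were searched in RefSeq promoter windows of build GRCm38.p6, each of 300 bases with 250 before and 50 after a start site. Of 32851 windows 8.30% held the motif, and 1.15% held the stricter TTCCNGGAA, which is contained in it. RefSeq windows were matched for 6 of the 8 genes, all but Elovl3 and Cyp4a12a, and 0 of the 6 held either motif, where 9.55% of 27025 genes held TTCNNNGAA. The windows of Hsd3b5 and Cyp2d9 lie 15282 and 18940 bases from the gene starts in the deposited tables, so they cover other ground than the annotated start. The sequences upstream of Serpina12 and Slco1a1, whose RefSeq and tabulated starts coincide, are shown because both genes were far lower in B2D, and that of Bcl6, a repressor in the same axis, is shown for contrast because it holds a match, in capitals, which begins 118 bases before the start. All are given 5′ to 3′ on the strand of the gene, the minus strand, in build GRCm38.p6. Of 9 growth hormone signalling genes, Bcl6 among them, 8 had a window, and 3 (Bcl6, Cish and Igfals) held TTCNNNGAA. Another RefSeq window of Bcl6, not shown, held 3 matches, 2 of them to the stricter motif. Absence of a match says only that these letters are not in the window searched.
Serpina12, chr12:104044444-104044693: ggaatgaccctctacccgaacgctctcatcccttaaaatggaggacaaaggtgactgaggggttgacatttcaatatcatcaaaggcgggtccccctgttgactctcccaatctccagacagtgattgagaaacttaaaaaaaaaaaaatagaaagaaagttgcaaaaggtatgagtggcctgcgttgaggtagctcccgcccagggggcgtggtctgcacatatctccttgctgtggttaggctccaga
Slco1a1, chr6:141946963-141947212: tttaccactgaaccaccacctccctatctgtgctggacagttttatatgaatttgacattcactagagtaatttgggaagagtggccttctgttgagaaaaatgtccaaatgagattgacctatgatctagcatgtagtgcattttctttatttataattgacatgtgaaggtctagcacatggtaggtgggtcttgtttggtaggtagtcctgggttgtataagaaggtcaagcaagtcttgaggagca
Bcl6, chr16:23988853-23989102: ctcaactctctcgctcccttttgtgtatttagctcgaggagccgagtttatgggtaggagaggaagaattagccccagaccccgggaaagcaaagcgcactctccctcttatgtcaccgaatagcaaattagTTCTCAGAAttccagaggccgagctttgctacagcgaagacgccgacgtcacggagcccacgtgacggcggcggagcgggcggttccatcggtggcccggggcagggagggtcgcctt

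Values are FPKM, read counts scaled by gene length and by a factor of each library, and each library is 1 mouse. That factor differed from the reads on genes, as in B2D 2 (17069373 against 15320729 reads) and Ctrl 2 (17383878 against 18075772). Libraries held from 15320729 to 21898502 reads, with a median of 18221850.5, and libraries of a group correlated at 0.955 to 0.989 (Pearson's r over genes). All 18 libraries carried reads of Y-linked genes (at least 2343) and at most 10 of Xist. Of 8 hepatocyte markers 7 were found, with summed levels of 33028 to 43124 FPKM in Ctrl and 33156 to 47155 in B2D, and 22431 to 25778 in Ctrl+FF and 19158 to 22385 in B2D+FF. Summed macrophage markers ranged from 101 to 128 FPKM in Ctrl and from 81.0 to 114 in B2D, and from 82.2 to 140 in Ctrl+FF and from 54.7 to 137 in B2D+FF. Among the markers of macrophages, endothelial cells, stellate cells, cholangiocytes, and lymphocytes and neutrophils, Clec4f, C1qa and Lyve1 were called. Clec4f and C1qa were lower in B2D and Lyve1 higher in B2D+FF, and all were picked out after their values were seen. Of the 8 macrophage markers, 7 had negative log2 fold changes in B2D and 1 a positive one. Of the 6 endothelial markers, 5 were negative in B2D+FF, and Lyve1 was the 1 above 0. The hepatocyte marker Serpina1c was called lower in B2D+FF. In whole liver, fewer cells of a type and less RNA per cell cannot be told apart, and the part of these markers in the results was not tested.

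Riboflavin deficiency went with lower levels of all 8 genes in mice without fenofibrate. The mean in Ctrl was 49.1 times that in B2D for Hsd3b5, 10.9 for Selenbp2, 6.83 for Serpina12, 4.18 for Slco1a1, 3.73 for Nat8, 3.23 for Elovl3, 3.08 for Cyp4a12a and 1.57 for Cyp2d9. All 8 were called lower in the limma fit of 11574 genes (adjusted p under 0.05), in which 1.94% of all genes were called lower, and the B2D and Ctrl mice did not overlap for 6 of 8, against 2.89% of all genes. These counts come from the contrast that was in view when the genes were chosen and are not evidence about them. The median log2 fold change of the 8, on the log2(FPKM + 1) scale, was -1.99, beside -0.0013 over all genes tested. In the fit without Ctrl 1, 5 of the 8 were called, without Ctrl 2 and without Ctrl 4 it was 4 in each case, and without any 1 of the other 7 mice 6 to 8 were called. Without the filter on low values (mean FPKM of at least 0.5) 3 of the 8 were called.

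**Figure D1:**
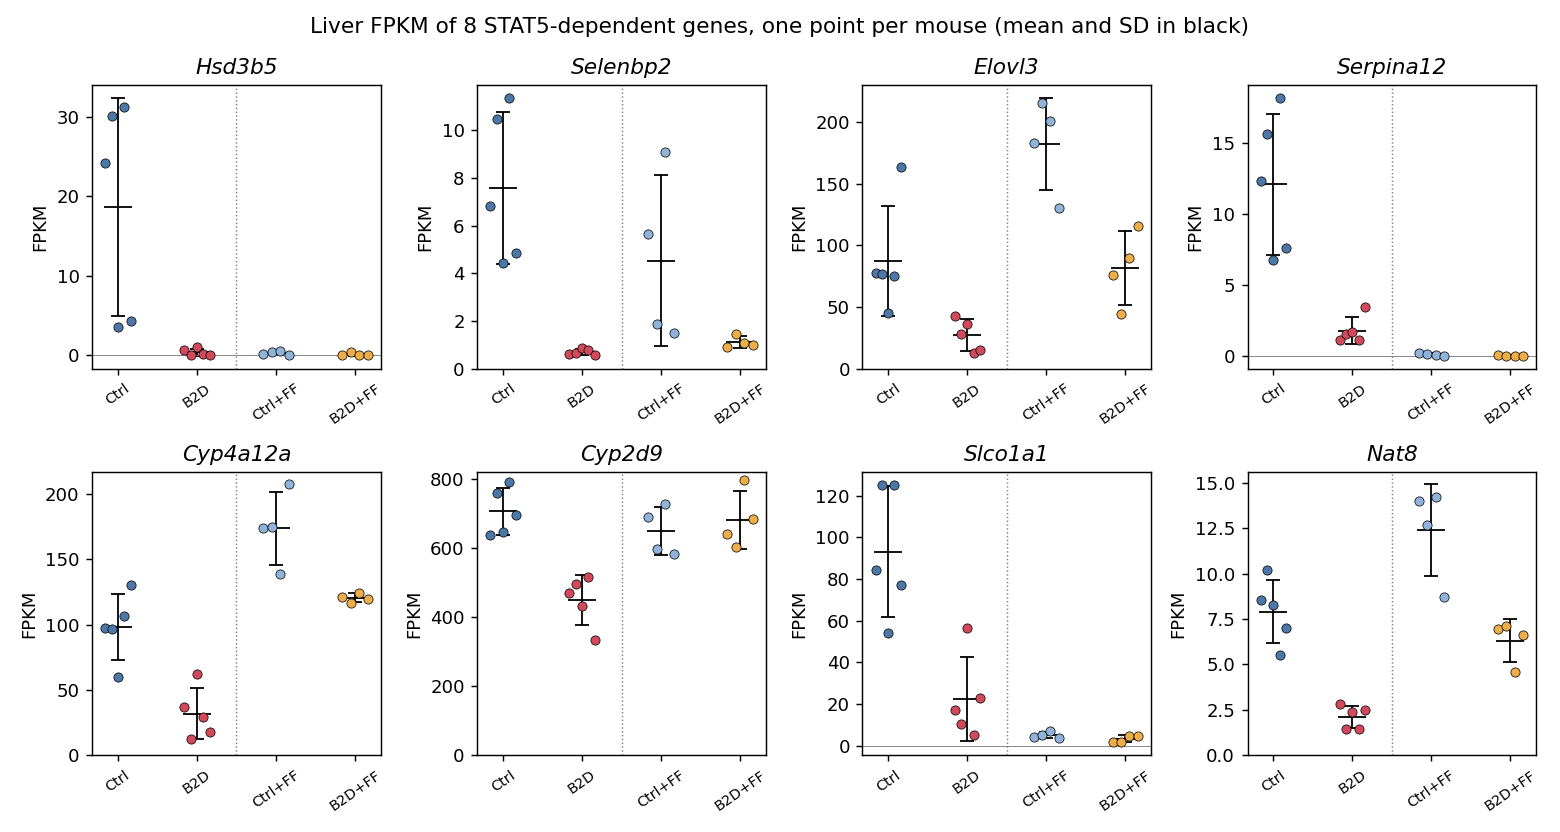
FPKM (vertical axis, linear, a separate scale for each gene) of the 8 genes in each mouse of the 4 groups, with the mean and SD of each group in black. The 5 B2D mice lie below all 5 Ctrl mice for every gene but Cyp4a12a and Slco1a1. The dotted line separates the tables without and with fenofibrate, which may have been normalized separately.

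Hsd3b5, Cyp2d9 and Slco1a1 handle steroids. Hsd3b5 (ENSMUSG00000038092, chr3:98618634-98630252, minus strand of GRCm38) encodes a ketosteroid reductase of the hydroxysteroid dehydrogenase family found in male mouse liver. It was at 24.2, 30.0, 3.50, 31.2 and 4.32 FPKM in Ctrl 1 to 5. In B2D 1 to 5 it was at 0.596, 0, 1.07, 0.166 and 0.0679 FPKM, which is 17, 0, 29, 5 and 2 reads, and the 0 reads of B2D 2 allow up to 3. The B2D mice all lay below the lowest Ctrl mouse, but the Ctrl mice themselves fell into a high and a low set, with Ctrl 3 and Ctrl 5 at 107 and 140 reads and the other 3 at 667 to 958. The group levels were 18.6 ± 13.7 and 0.379 ± 0.449 FPKM (SD, 5 mice each), and the log2 fold change of -3.43 (SE 0.55) was the fifth lowest of the 11574 genes.

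Cyp2d9 (ENSMUSG00000068086, chr15:82433437-82456845, plus strand) encodes a cytochrome P450 that hydroxylates testosterone and was by level the highest of the 8. It was at 637, 759, 646, 791 and 696 FPKM in Ctrl 1 to 5. The B2D mice were at 470, 494, 433, 516 and 333 FPKM, all below the lowest Ctrl mouse. Its difference was the smallest of the 8, with 706 ± 68.0 against 449 ± 72.1 FPKM (SD, 5 mice each) and a log2 fold change of -0.66 (SE 0.13).

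Slco1a1 (ENSMUSG00000041698, chr6:141907282-141946962, minus strand) encodes a basolateral organic anion transporter that takes up steroid conjugates and bile acids. Ctrl 1 to 5 were at 84.5, 125, 54.1, 125 and 77.1 FPKM. B2D 1 to 5 were at 16.9, 10.1, 56.4, 4.96 and 23.0 FPKM. B2D 3, at 56.4, stood above the lowest control, Ctrl 3, so the groups overlapped by this pair, while the other 4 B2D mice were below every control. The means were 93.2 ± 31.3 and 22.3 ± 20.3 FPKM (SD, 5 mice each), with a log2 fold change of -2.36 (SE 0.49).

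Cyp4a12a and Elovl3 act on fatty acids. Cyp4a12a (ENSMUSG00000066071, chr4:115299046-115332815, plus strand), a fatty acid ω-hydroxylase that is high in male liver and kidney, was at 97.1, 96.6, 60.2, 107 and 130 FPKM in Ctrl 1 to 5. In B2D 1 to 5 it was at 37.0, 12.3, 62.5, 29.6 and 17.9 FPKM. As for Slco1a1, the overlap came from B2D 3, the highest of its group, and Ctrl 3, the lowest of its own. The means were 98.1 ± 25.1 and 31.8 ± 19.7 FPKM (SD, 5 mice each), with a log2 fold change of -1.76 (SE 0.36).

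Elovl3 (ENSMUSG00000038754, chr19:46131897-46135307, plus strand) elongates saturated and monounsaturated very long chain fatty acids. Ctrl 1 to 5 were at 77.2, 76.5, 44.9, 75.2 and 163 FPKM, and B2D 1 to 5 at 42.7, 28.5, 36.4, 12.9 and 14.9. The B2D mouse with the highest level was just under the lowest control, and Ctrl 5 stood apart from the other controls. The means were 87.5 ± 44.6 and 27.1 ± 13.0 FPKM (SD, 5 mice each), with a log2 fold change of -1.67 (SE 0.37).

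Serpina12 (ENSMUSG00000041567, chr12:104028769-104044443, minus strand), which encodes the secreted serpin vaspin, was at 12.4, 15.7, 6.73, 18.2 and 7.59 FPKM in Ctrl 1 to 5. In B2D 1 to 5 it was at 1.12, 1.52, 1.68, 1.10 and 3.44 FPKM. No B2D mouse reached the lowest control, and B2D 5 was above the other 4. The means were 12.1 ± 4.98 and 1.77 ± 0.963 FPKM (SD, 5 mice each), with a log2 fold change of -2.21 (SE 0.27).

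Nat8 (ENSMUSG00000030004, chr6:85830388-85832082, minus strand), an acetyltransferase that completes mercapturic acids from cysteine conjugates, was at 8.56, 10.2, 8.26, 5.52 and 7.03 FPKM in Ctrl 1 to 5 and at 2.81, 1.46, 2.38, 1.47 and 2.48 in B2D 1 to 5. The diets were well separated, and the controls were ordered otherwise than for Hsd3b5 or Selenbp2, with Ctrl 4 lowest. The means were 7.91 ± 1.75 and 2.12 ± 0.619 FPKM (SD, 5 mice each), with a log2 fold change of -1.51 (SE 0.17).

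Selenbp2 (ENSMUSG00000068877, chr3:94693556-94704413, plus strand), a selenium-binding protein that also binds acetaminophen, was at 6.83, 10.5, 4.44, 11.4 and 4.84 FPKM in Ctrl 1 to 5. All 5 B2D mice lay between 0.579 and 0.853 FPKM, from 25 to 34 reads each. The SD among the B2D mice was 16.01% of their mean, where that of Hsd3b5 was 118%. The means were 7.59 ± 3.18 and 0.699 ± 0.112 FPKM (SD, 5 mice each), with a log2 fold change of -2.26 (SE 0.21).

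With fenofibrate, of the 6 genes that passed the filter on low values, Elovl3, Nat8 and Cyp4a12a were called lower in B2D+FF in a fit of 11878 genes, in which 2.21% of all genes were called lower. Cyp2d9, Slco1a1 and Selenbp2 were not called, and Hsd3b5 and Serpina12 were too low to be tested. Whether the diet differences with and without the drug differ was not tested. The 4 B2D+FF mice lay below the 4 Ctrl+FF mice for 4 of 8 genes, against 6.44% of all genes, and these counts too are descriptions. The log2 fold changes of the 6 tested had a median of -0.71, beside 0.013 over all genes tested. Without Ctrl+FF 1 or Ctrl+FF 2, and without the filter, 0 of the 8 were called. Without Ctrl+FF 3, B2D+FF 1, B2D+FF 3 or B2D+FF 4 it was 1, and without Ctrl+FF 4 or B2D+FF 2 it was 2.

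**Figure D2:**
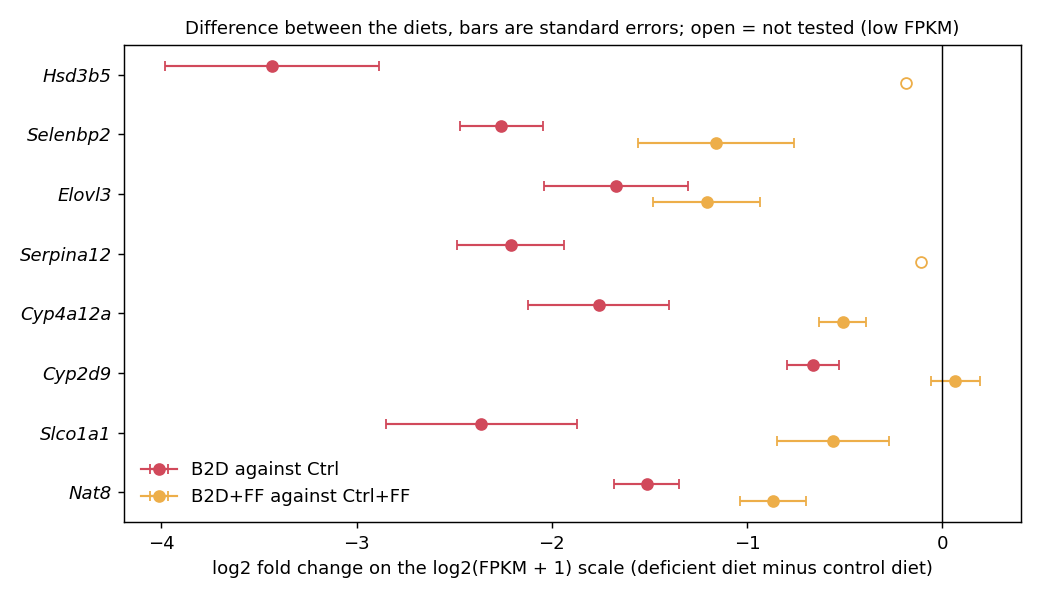
Log2 fold change between the diets on the log2(FPKM + 1) scale (horizontal axis, deficient minus control) for the 8 genes, with standard errors as bars, in red without and in orange with fenofibrate. Points left of 0 are lower on the deficient diet, as all 8 are without the drug and 5 of the 6 tested are with it, and open points mark Hsd3b5 and Serpina12, which were not tested with the drug and have too few reads there for a direction to be read.

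Elovl3 was at 183, 215, 201 and 130 FPKM in Ctrl+FF 1 to 4 and at 76.1, 44.5, 89.8 and 116 in B2D+FF 1 to 4. The groups did not overlap, with means of 183 ± 37.3 and 81.6 ± 29.8 FPKM (SD, 4 mice each) and a log2 fold change of -1.21 (SE 0.27). Nat8 was at 14.0006, 12.7, 14.2 and 8.72 FPKM in Ctrl+FF and at 6.95, 7.09, 4.56 and 6.65 in B2D+FF, likewise without overlap, and its log2 fold change was -0.87 (SE 0.17).

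Cyp4a12a was at 174, 174, 139 and 207 FPKM in Ctrl+FF and at 121, 116, 124 and 119 in B2D+FF. The B2D+FF mice were close together, with an SD of 2.84% of their mean, and below every control, with a log2 fold change of -0.51 (SE 0.12). Selenbp2 was at 5.66, 1.87, 9.10 and 1.48 FPKM in Ctrl+FF and at 0.905, 1.47, 1.06 and 0.988 in B2D+FF. The lowest Ctrl+FF mouse lay just above the highest B2D+FF mouse, and the Ctrl+FF mice ranged widely. The mean in Ctrl+FF was 4.09 times that in B2D+FF, and the log2 fold change of -1.16 (SE 0.40) was not called.

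Slco1a1 was at 3.97, 4.95, 6.87 and 3.70 FPKM in Ctrl+FF and at 1.92, 1.5002, 4.54 and 4.72 in B2D+FF, with B2D+FF 3 and B2D+FF 4 inside the control range and a log2 fold change of -0.56 (SE 0.29). Cyp2d9 was at 689, 597, 728 and 582 FPKM in Ctrl+FF and at 640, 601, 797 and 684 in B2D+FF. Its groups overlapped throughout, and of the 6 tested it was the gene whose log2 fold change, 0.067 (SE 0.13), was above 0; without B2D+FF 3 the value was -0.012. Hsd3b5 had from 0 to 13 reads in Ctrl+FF and from 0 to 11 in B2D+FF, and Serpina12 from 0 to 12 and from 0 to 1, so neither gives a fold change at this depth.

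Set side by side, the control diet groups of the tables had different levels of these genes. Mean FPKM was 18.6 in Ctrl and 0.258 in Ctrl+FF for Hsd3b5, 12.1 and 0.0898 for Serpina12, 93.2 and 4.87 for Slco1a1, and 7.59 and 4.53 for Selenbp2. It was 87.5 and 183 for Elovl3, 98.1 and 173 for Cyp4a12a, 7.91 and 12.4 for Nat8, and 706 and 649 for Cyp2d9. Hsd3b5, Serpina12 and Slco1a1 thus stood far lower, and Elovl3, Cyp4a12a and Nat8 higher, in Ctrl+FF. The tables may have been normalized separately. Fenofibrate, the longer feeding with the greater age, and the table cannot be told apart, so the difference was not tested.

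Relatives of the 8 genes were compared within each diet contrast, from lists of the gene families written with earlier results known. Of the Hsd3b family, both tested genes, Hsd3b2 and Hsd3b3, also fell in B2D, with log2 fold changes of -1.70 and -1.43 (limma adjusted p = 0.00484 and 0.0082), and in B2D+FF, at -1.19 and -0.79 (limma adjusted p = 0.00391 and 0.0403). The Hsd3b3 call with fenofibrate was lost without any 1 of the mice but Ctrl+FF 4 and B2D+FF 4, at adjusted p up to 0.116, and without the filter (0.102), and those of Hsd3b2 were kept in every such fit. Cyp4a12b, the near copy of Cyp4a12a, fell from 63.6 ± 5.15 to 20.4 ± 11.1 FPKM in B2D (SD, 5 mice each; log2 fold change -1.73, limma adjusted p = 0.00717), and went from 106 to 74.1 in B2D+FF (log2 fold change -0.50, adjusted p = 0.0577, or 0.0306 without Ctrl+FF 3 and 0.0322 to 0.0409 with limma voom, a filter at 5 FPKM or one upper quartile). The other 4 tested Cyp4a genes were not called in either contrast.

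Of the Nat8 family, Nat8f1 and Nat8f5 fell in B2D, at -1.35 and -2.01 on the log2 scale (limma adjusted p = 0.0082 and 0.0143), and Nat8f5 in B2D+FF, at -1.51 (limma adjusted p = 0.00794). The Nat8f5 call in B2D was lost without the filter (limma adjusted p = 0.0689). Nat8f2, with a log2 fold change of -0.80 in B2D+FF, had an adjusted p of 0.0344 that rose to 0.0618 to 0.103 without any of Ctrl+FF 1 to 4, B2D+FF 1 or B2D+FF 2, and to 0.0871 without the filter. Of the Cyp2d genes, Cyp2d40 fell in B2D, at -1.33 on that scale (limma adjusted p = 0.0118, or 0.0555 without the filter) and the other 3 tested were not called. In B2D+FF, the Cyp2d40 value was -0.93 with an adjusted p of 0.049, and it missed the threshold without any 1 of Ctrl+FF 1, Ctrl+FF 2, Ctrl+FF 3, B2D+FF 1, B2D+FF 3 and B2D+FF 4, at up to 0.138, without the filter (0.123) and with a pseudocount of 0.1 (0.0525).

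Slco1a4, a sister transporter of Slco1a1 that is higher in female liver, moved the other way. It rose from 14.5 ± 4.80 to 52.4 ± 18.9 FPKM in B2D (SD, 5 mice each; log2 fold change 1.78, SE 0.25, limma adjusted p = 0.00557), and by 2.49 in B2D+FF (SE 0.16, limma adjusted p = 3.56e-04). Selenbp1 had log2 fold changes of -0.28 and 0.42 (limma adjusted p = 0.366 and 0.0816), and none of the 4 and 5 tested relatives of Elovl3 was called in B2D or B2D+FF. Of 12 tested Serpina genes, Serpina1e and Serpina10 were lower in B2D, and Serpina1a, Serpina1c, Serpina1e and Serpina6 in B2D+FF. Serpina1e was at -3.92 and -3.21 on the log2 scale (limma adjusted p = 0.00649 and 0.0113). The Serpina10 call was lost without any 1 of the mice but Ctrl 5 and B2D 5 (limma adjusted p from 0.0578 to 0.118), the Serpina1a call without Ctrl+FF 1 to 3, B2D+FF 2 or B2D+FF 4 (from 0.0549 to 0.104), and the Serpina6 call without any of the Ctrl+FF mice or B2D+FF 4 (from 0.0574 to 0.0849). Without the filter these 3 calls were lost too (from 0.0792 to 0.104), and that of Serpina10 also under quantile normalization (0.0713).

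Reads could be shared between such relatives. Of all stretches of 100 bases in the annotated transcripts, 35.8% of those of Cyp4a12a also occur in Cyp4a12b, 17.4% of those of Selenbp2 in Selenbp1, 7.91% of those of Cyp2d9 and 7.79% of those of Hsd3b5 in other genes, 1.07% for Nat8, 0.614% for Slco1a1 and 0 for Elovl3 and Serpina12. How reads that fit several genes were assigned is not given in the sources used here. The values of Cyp4a12a, Cyp4a12b and Selenbp2 are therefore uncertain, by an amount that these shares of single stretches do not measure. So are those of the Serpina1 and Hsd3b genes, among which a share was computed only for Hsd3b5. By its name the library kit does not mark strand. Hsd3b5 overlaps Zfp697 and Elovl3 overlaps Pitx3 on the opposite strand, so with such a kit their reads cannot be told apart there. Cyp2d9 overlaps 4 annotated pseudogenes and small RNAs, and Slco1a1 overlaps 1.

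The genes that carry the growth hormone signal to STAT5 were then examined. Of 14 tested genes of that list, Ghr was lower and the prolactin receptor gene Prlr, picked out after its value was seen, was higher in B2D, and the median log2 fold change was 0.0003. Ghr was at 46.6, 54.6, 38.6, 59.98 and 42.9 FPKM in Ctrl 1 to 5 and at 27.8, 22.4, 32.5, 27.3 and 34.3 in B2D 1 to 5. All B2D values lay under the lowest control, with a log2 fold change of -0.73 (SE 0.15, limma adjusted p = 0.0265). The call was lost without Ctrl 1, Ctrl 2, Ctrl 4, B2D 2 or B2D 4, where adjusted p ranged from 0.0513 to 0.0785, and without the filter, where it was 0.0751.

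Ghr was also lower with fenofibrate, at 39.97, 35.9, 40.6 and 34.2 FPKM in Ctrl+FF and 18.3, 24.0, 26.7 and 24.5 in B2D+FF (log2 fold change -0.67, SE 0.12, limma adjusted p = 0.0182). Without Ctrl+FF 1, Ctrl+FF 2 or Ctrl+FF 3 the adjusted p was 0.0677, 0.0587 and 0.0546. Prlr, which went from 2.85 ± 0.492 to 6.57 ± 1.44 FPKM in B2D (SD, 5 mice each; log2 fold change 0.96, limma adjusted p = 0.00557), was at 2.90 and 3.24 FPKM in Ctrl+FF and B2D+FF (adjusted p = 0.547).

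Transcripts of the signalling steps below the receptor were not called in B2D. Jak2 had a log2 fold change of 0.041, Stat5a of -0.054 and Stat5b of 0.11 (limma adjusted p = 0.868, 0.794 and 0.639), and in B2D+FF they were -0.14, -0.23 and -0.07 (limma adjusted p = 0.511, 0.226 and 0.664). The Stat5b level was 7.53 ± 1.02 FPKM in the controls and 8.18 ± 0.995 in B2D (SD, 5 mice each). Phosphorylation of JAK2 and STAT5 is not measured by RNA-seq.

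None of the other STAT5 target genes in this list, Igf1, Igfals, Socs2, Cish and Bcl6, was called in B2D. Igf1, which encodes the circulating growth factor IGF1, had levels of 55.5 ± 9.24 and 53.7 ± 11.6 FPKM in Ctrl and B2D (SD, 5 mice each). Its log2 fold change was -0.05 (SE 0.16, limma adjusted p = 0.890), and its value with fenofibrate was -0.20 (limma adjusted p = 0.314). The feedback inhibitors Socs2 and Cish had log2 fold changes of 0.90 and -0.15 in B2D (limma adjusted p = 0.188 and 0.724) and 0.47 and 0.27 in B2D+FF (limma adjusted p = 0.382 and 0.364). Igfals, which stabilizes circulating IGF1, was at -0.60 in B2D (limma adjusted p = 0.165) and at -0.52 in B2D+FF (limma adjusted p = 0.0333), and the latter call was lost without any 1 mouse but B2D+FF 1, at up to 0.0872, and without the filter, at 0.0660. Bcl6, whose upstream sequence is given above, was at 0.53 and 0.42 (limma adjusted p = 0.494 and 0.0914, the second 0.0336 without B2D+FF 3).

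Of 18 tested transcription factors that act with STAT5 in liver, those called in B2D were Cux2 and Trim24, both higher. Cux2, a repressor that is high in female liver, was at 0.0057 to 0.116 FPKM in the 5 Ctrl mice (1 to 23 reads) and at 1.17 to 2.44 in the 5 B2D mice (217 to 420 reads), with a log2 fold change of 1.42 (SE 0.12, limma adjusted p = 5.24e-04). With fenofibrate it was below the filter, at 7 to 9 reads in Ctrl+FF and 70 to 146 in B2D+FF. Trim24 had a log2 fold change of 0.91 in B2D (limma adjusted p = 0.0327, from 0.0522 to 0.0942 without Ctrl 1, Ctrl 2, Ctrl 4 or any of B2D 2 to 5, and 0.110 without the filter). In B2D+FF, 4 of 17 were called. Trim24, at 0.84 (limma adjusted p = 0.0152, or 0.0572 and 0.0551 without Ctrl+FF 1 and Ctrl+FF 2), and Tox, at 0.55 (limma adjusted p = 0.0135, or 0.0502 without Ctrl+FF 1), were higher. The hepatocyte factors Onecut1 and Cebpa were lower, at -0.90 and -0.57 (limma adjusted p = 0.0203 and 0.0205), and both calls were lost without Ctrl+FF 1, B2D+FF 1 or B2D+FF 4, that of Onecut1 also without Ctrl+FF 3 and that of Cebpa without Ctrl+FF 2, at adjusted p from 0.0511 to 0.0775. Without the filter the Onecut1 call was lost as well (adjusted p = 0.0621).

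Other genes with a known sex difference in liver were counted on lists written with earlier results of these data known. Of 17 tested other genes that are higher in male liver, 8 fell in B2D (3 without the filter), where 1.94% of all genes did, their median value was -1.34 on the log2 scale, and 15 of the 17 values were negative. Serpina1e went from 1279 ± 275 to 119 ± 98.8 FPKM and Gstp1, a glutathione transferase, from 1429 ± 508 to 446 ± 148 (SD, 5 mice each; limma adjusted p = 0.00649 and 0.00978, the second 0.0535 without the filter). In B2D+FF 9 of 16 fell (4 without the filter), beside 2.21% of all genes, with a median of -1.05, among them the complement genes C6 at -1.71 and C8a at -1.52 (limma adjusted p = 0.00315 and 0.00746). Gstp1 was at 294 and 330 FPKM in Ctrl+FF and B2D+FF (log2 fold change 0.16, limma adjusted p = 0.593).

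Of 18 tested genes that are higher in female liver, 9 rose in B2D (3 without the filter), where 0.769% of all genes did, and all 18 values were positive, with a median of 0.92 on the log2 scale. Fmo2, a flavin monooxygenase, went from 6.60 ± 2.40 FPKM to 23.6 ± 8.15 (SD, 5 mice each; limma adjusted p = 0.00972, or 0.0527 without the filter). Cyp2b9 was at 0.355 ± 0.5004 and 55.4 ± 58.9 FPKM (SD, 5 mice each; log2 fold change 4.66, limma adjusted p = 0.00664, or 0.0792 in limma voom on the recovered reads). In B2D+FF 8 of 17 rose, beside 2.24% of all genes, and all 17 values were positive, with a median of 1.09. Cyp2b10 showed the widest difference there, 1.60 ± 1.11 against 43.7 ± 5.98 FPKM (SD, 4 mice each; log2 fold change 4.19, limma adjusted p = 3.56e-04), and Cyp39a1 was at 1.63 (limma adjusted p = 0.0042).

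**Figure D3:**
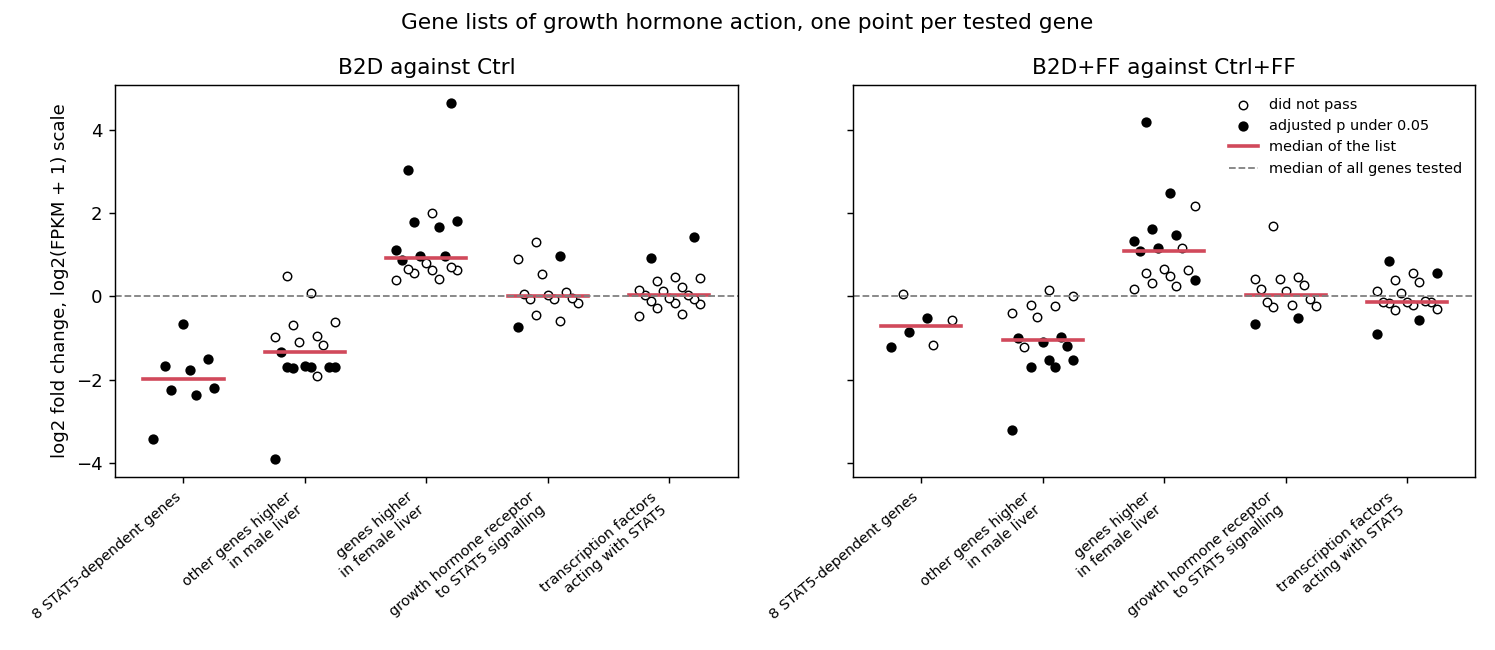
Log2 fold change between the diets (vertical axis, log2(FPKM + 1) scale) of every tested gene of 5 lists, without fenofibrate on the left and with it on the right, where filled points passed the threshold, red lines mark list medians and the dashed line the median of all genes. The male list lies mostly below 0 (median -1.34 and -1.05), the female list wholly above it (0.92 and 1.09), and the signalling and transcription factor lists are centred near 0.

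Within a group some mice were at the same end of the range for several of the 8 genes, and others were not. Ctrl 3 had the lowest level among the controls for 6 of the 8 genes, and Ctrl 4 the highest for 5. In B2D, B2D 3 was the highest for 4 of the 8. Ctrl+FF 4 was the lowest of its group for 7 of the 8, all but Cyp4a12a, and Ctrl+FF 3 the highest for 5. For Hsd3b5 and Serpina12, Ctrl+FF 4 had 0 reads in a group with at most 13 and 12. B2D+FF 2 went both ways, the lowest of its group for 5 genes and the highest for 3 (Hsd3b5, Nat8 and Selenbp2). Its lowest place for Serpina12 was a tie at 0 reads. Ctrl 3 and Ctrl 4 held 19060220 and 20614953 reads, B2D 3 held 17909343, and Ctrl+FF 3 and Ctrl+FF 4 held 17386688 and 16737980, all inside the range of the 18 libraries.

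Deviations of log2(FPKM + 1) from the group mean do not use the difference between diets. Over the 18 libraries the 28 pairs of genes had a median Pearson's r of 0.24 in these deviations, from -0.33 to 0.68, with 22 pairs above 0. Hsd3b5, Slco1a1 and Selenbp2 were the most like the mean of the other 7 genes, at r = 0.67, 0.63 and 0.53. Cyp2d9 and Nat8 were the least like it, at 0.14 and 0.16. The points share libraries and the values for Hsd3b5 and Serpina12 with fenofibrate rest on few reads, so these r are descriptions.

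Of 9931 other tested protein-coding genes, Ces3a, a liver carboxylesterase, and Tff3, a secreted trefoil factor, followed the mean deviation of the 8 most closely, at r = 0.91 and 0.89 over 18 libraries. Mup14, Ptdss1, Retreg3 and Bbc3 came next, at 0.84 to 0.81. These r were picked as the highest of 9931, so they are raised by that choice and were not tested. Over the mice with fenofibrate alone they ran from 0.65 for Bbc3 to 0.85 for Ces3a. Ces3a fell from 570 ± 133 to 254 ± 47.1 FPKM in B2D (SD, 5 mice each; limma adjusted p = 0.00892) and from 324 ± 66.6 to 113 ± 8.95 in B2D+FF (SD, 4 mice each; limma adjusted p = 0.00215). Tff3 fell from 21.7 ± 14.2 to 2.22 ± 1.91 FPKM in B2D (SD, 5 mice each; limma adjusted p = 0.0109, or 0.0567 without the filter) and was at 2.87 and 0.243 in Ctrl+FF and B2D+FF (limma adjusted p = 0.0871, or 0.0365 without Ctrl+FF 4 and 0.0489 with a pseudocount of 0.1).

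Mup14, one of the near-identical major urinary protein genes whose counts are uncertain for that reason, fell in both contrasts, at -4.77 and -4.42 on the log2 scale (limma adjusted p = 0.004 and 0.00204). Ptdss1, a phosphatidylserine synthase, Retreg3, a receptor for turnover of the endoplasmic reticulum, and Bbc3, a promoter of cell death, had values between -0.24 and -0.08 in B2D and between -0.23 and -0.13 in B2D+FF, and none of these was called (limma adjusted p from 0.200 to 0.794).

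**Figure D4:**
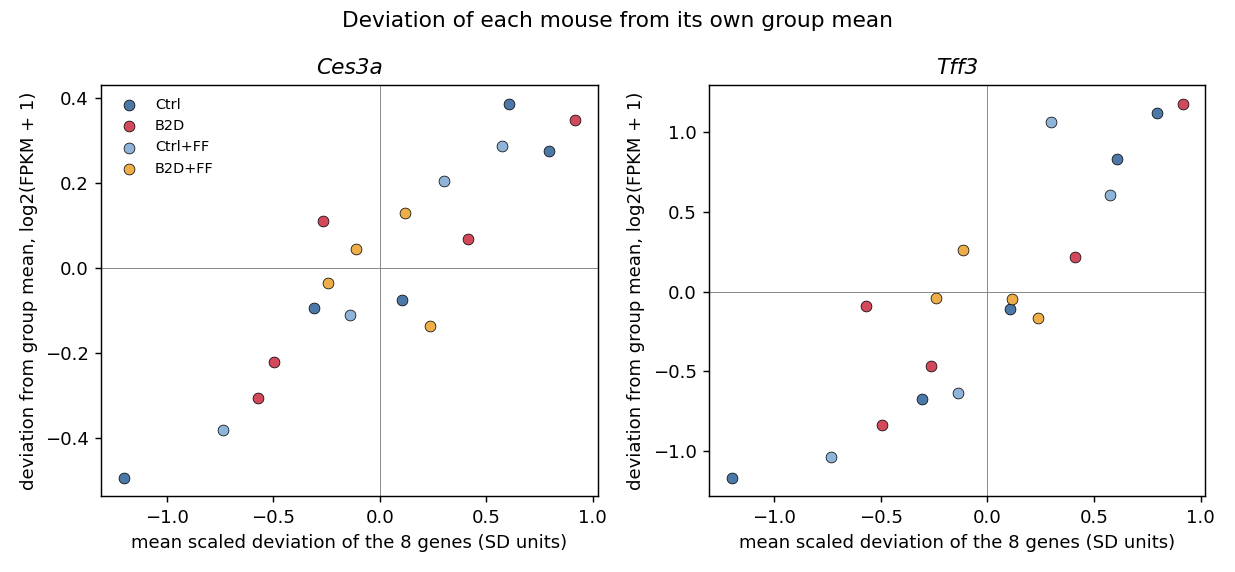
Deviation of each of the 18 mice from its group mean in log2(FPKM + 1) for Ces3a (left) and Tff3 (right) on the vertical axis, against the mean scaled deviation of the 8 genes in SD units on the horizontal axis, coloured by group. Ctrl 3 lies lowest on both axes, at -1.20 SD units, and B2D 3 and Ctrl 2 lie furthest to the right, at 0.92 and 0.80.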

How the data were processed

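The authors extracted liver RNA, prepared unstranded mRNA libraries, aligned reads with STAR to mm10 (GRCm38), counted them per gene with featureCounts and tested genes with DESeq2, with versions not given in the sources used here. The values used are FPKM as deposited by the authors in a table without and a table with fenofibrate. The study's methods call them RPKM, and whether each table was normalized on its own is not given in the sources used here. FPKM times gene length came out as whole multiples of a single step in every library (within 0.05 read), which gave the reads behind each value. Mice were mapped to groups by their labels and numbered from 1 within a group.

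Each table was fitted alone with limma 3.58.1 in R 4.3.3 (moderated with a trend) on log2(FPKM + 1) for genes whose mean reached 0.5 FPKM, two-sided, with Benjamini-Hochberg adjustment over all genes tested and a threshold of 0.05. Fold changes on this scale understate the change of low genes. The p-values weigh a difference between the diets against the spread between these mice, moderated across genes. The fit was tested on simulated data that gave every gene the same spread between mice. That check therefore does not bear on genes that vary widely between mice. The 8 genes, the gene lists (4 besides the 8, with families and cell markers), tests and alternatives were chosen with earlier results of these data known, so the 8 are given without p-values. Also named are Ghr, Jak2, Stat5a, Stat5b, Socs2, Cish, Igf1, Igfals and Bcl6, up to 5 called genes of each list by adjusted p in each comparison, family members at 0.5 FPKM or more, and the 6 genes whose deviations from the group mean were most like those of the 8; any other gene named was chosen after its values were seen, and 1 gene that this rule names is not reported here. Alternatives were a pseudocount of 0.1, no filter, a filter at a mean of 5 FPKM, one upper quartile, quantile normalization, limma voom on the recovered reads, and leaving out each mouse.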

Additional observations from a re-analysis of the deposited data

Results flagged for a closer look

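Over 204 groups of 4 or 5 mice (51 named genes in 4 groups), 14 held a mouse far from the others of its group by Dixon's criterion (a gap over 0.829 of the range for 4 mice and 0.71 for 5), where chance gives about 1 in 20. Of the 8 genes, Elovl3 stood out in Ctrl 5 at 163 FPKM, where the other controls reached 77.2, Serpina12 in B2D 5 at 3.44, where the other B2D mice reached 1.68, and Hsd3b5 in B2D+FF 2 at 0.349, where the others were at most 0.0379.

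Of the signalling genes, Jak2 was low in B2D 2 (2.57 FPKM), Igf1 low in Ctrl+FF 2 (33.3) and Cish high in Ctrl+FF 4 (1.14). Cebpa was high in B2D 1 (187 FPKM) and in B2D+FF 2 (77.3). Among genes that differ by sex, Serpina1e was high in B2D+FF 1 (12.7 FPKM), Cyp39a1 in Ctrl 3 (23.8) and Cyp2b10 in B2D 4 (10.6), and Fmo2 was low in B2D+FF 2 (6.70). Of the genes most like the 8, Mup14 was high in B2D 3 (15.7 FPKM) and Ptdss1 low in Ctrl+FF 4 (11.3). Ctrl 3, the mouse with the lowest levels of 6 of the 8 genes among the controls, had 1 flag. That was for Cyp39a1, which is higher in female liver and was highest in Ctrl 3 among the controls. Where Ctrl 3 stood for the other genes of the female list was not examined.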

How the results depend on the processing

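No called result changed direction under any alternative run. Among the named genes, values that were not called crossed 0 for Cyp2d9 in B2D+FF, at -0.012 without B2D+FF 3, and for 4 genes in B2D, namely Bbc3 at 0.027 without B2D 4, Igf1 at 0.035 and 0.0016 without B2D 4 and B2D 2 and at 0.063 under quantile normalization, Jak2 at -0.038 without Ctrl 3 and Stat5a at 0.00071 without Ctrl 1. Without the filter on low values, 67 genes were called in B2D in place of 313 (25041 tested), with 3 of the 8 genes, 1 signalling gene, 1 transcription factor, 3 male and 3 female genes, and in B2D+FF 272 in place of 529 (24746 tested), with 0 of the 8, 1 signalling gene and 4 male genes. Requiring a mean FPKM of 5 left 1 transcription factor called in B2D, and limma voom called 4 signalling genes there. Voom called 403 and 742 genes in all and 7 and 3 of the 8. Rescaling to one upper quartile split the B2D+FF calls into 366 lower and 223 higher, in place of 263 and 266.

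Leaving out each mouse gave 98 to 332 called genes in B2D and 175 to 596 in B2D+FF. Of the 8, 4 to 8 and 0 to 2 were called. Their median log2 fold change ran from -2.15 to -1.88 and from -0.84 to -0.70. Called signalling genes numbered 1 to 3 and 0 to 2, transcription factors 1 to 2 and 0 to 4, male genes 4 to 11 and 4 to 8, and female genes 5 to 10 and 6 to 8.

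The differences of the low genes depend on the pseudocount. With 0.1 the B2D log2 fold changes were -5.32 for Hsd3b5, -3.17 for Selenbp2, -2.72 for Serpina12 and -1.87 for Nat8, and with voom -6.11, -3.32, -2.79 and -1.90. Cyp2d9 was at -0.42 under quantile normalization. Depth limits Hsd3b5 and Serpina12 with fenofibrate, which had at most 13 and 12 reads. No paired analysis was possible because the mice of different groups share no numbers in the labels.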
